A study of Mus musculus with 4 samples.

Results

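Eicosanoid genes were followed across the cells of chemically induced colon tumours of mice. The 10 genes, chosen by symbol, were Ptgs1, Ptgs2, Ptges, Hpgds, Hpgd, Alox5, Alox5ap, Ltc4s, Ptger2 and Ptger4. All 10 were found among the 31053 genes of the deposited count matrix, and the rule uses no measured value. None of the 10 belonged to a marker list used to name a cell type, and they were left out of the clustering of cells.

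Prostaglandins and leukotrienes are short-lived lipid signals made from arachidonic acid, which phospholipases free from membranes. The cyclooxygenases Ptgs1 (COX-1, largely constitutive) and Ptgs2 (COX-2, induced by inflammatory signals) make prostaglandin H2, which terminal synthases turn into individual prostanoids. Ptges makes prostaglandin E2, Hpgds makes prostaglandin D2, and Hpgd, 15-hydroxyprostaglandin dehydrogenase, breaks prostaglandins down. Alox5 with its partner Alox5ap (FLAP) makes leukotriene A4, and Ltc4s joins that product to glutathione to form leukotriene C4. Ptger2 and Ptger4 encode the EP2 and EP4 receptors of prostaglandin E2. In the colon, COX-2 and prostaglandin E2 are known as promoters of tumour growth, and HPGD as an enzyme of the differentiated epithelium that is often low in colorectal cancer.

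The study compared mice lacking Egfr in the myeloid lineage (EgfrΔMYL) with Egfr fl/fl mice, which carry the floxed allele. Each genotype gave a CD45+ and a CD45- sorted sample, so there were 4 labelled groups of 1 sample each: CD45+ EgfrΔMYL, CD45- EgfrΔMYL, CD45+ Egfr fl/fl and CD45- Egfr fl/fl. All mice were C57BL/6 females given azoxymethane (AOM), a colon carcinogen, at 12.5 mg/kg and cycles of dextran sulphate sodium (DSS), which injures the colon lining, at 2.5% and in the last cycle 2%. Polyps were taken 30 days after the last DSS, digested with collagenase, stained for CD45 and the epithelial protein EPCAM, and sorted. The Cre line that deleted Egfr, the age of the mice and the number pooled per sample are not stated in the sources used here.

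The matrix held 18026 barcodes marked by the suffixes 1 to 4, called libraries 1 to 4 here, and no source used here pairs a suffix with a sample. No genotype or sort could therefore be compared, no test was possible, and all intervals below are 95% intervals for counting error only. After filtering, 14198 cells were kept, with 594, 1706, 4516 and 7382 cells and median UMI counts (unique molecules per cell) of 4507, 3390.5, 4932.5 and 5177 in libraries 1 to 4. Libraries 1 and 2 lost 59.0% and 56.3% of their barcodes to the filters, against 8.75% and 4.45% for libraries 3 and 4. Of the barcode sequences, 24 occurred under more than 1 suffix, 14 of them among kept cells. Marker gates placed 11248 cells (79.2%) in 1 class, 1602 passed several gates (917 of these the neutrophil gate together with a mononuclear phagocyte gate) and 1348 passed none. Epithelial-like and stromal-like cells came mainly from libraries 1 and 2, and macrophage-like, dendritic-like and lymphoid cells mainly from libraries 3 and 4. Egfr had 0, 0, 1 and 1 UMIs in the monocyte-like and macrophage-like cells of libraries 1 to 4, so it could not check the labels. Libraries 1 and 2 held only 9 and 13 such cells, where 0 UMIs allow up to 35.4 and 61.2 CPM. Epithelial-like cells of libraries 1 and 2 held 118 and 190 Egfr UMIs.

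Kept cells held 78541 UMIs of Ptgs2 and 30488 of Alox5ap, seen in 35.5% and 36.7% of cells. Ptgs1 had 6191 UMIs, Hpgds 4561, Ptger4 4402, Hpgd 2405 and Ltc4s 1489, and the rarest were Ptges with 805, Alox5 with 730 and Ptger2 with 487. Levels below are CPM, the UMIs of a gene scaled by all UMIs of the class, and they are compared between classes for 1 gene, not between genes. A fold is the level in a class over the unweighted mean of the other classes of at least 20 cells, after 1 CPM was added to both, and a gene was counted as higher at 2-fold or more with at least 10 UMIs in the class. Counts are set beside the share of all 17469 tested genes that met the same rule. A summed level cannot tell fewer expressing cells from less RNA per cell, so the share of cells with a UMI is given beside the level.

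On mm10, with positions from GENCODE vM21, Ptgs1 spans chr2:36230426-36252272 (plus strand), Ptgs2 chr1:150100031-150108227 (plus), Ptges chr2:30889471-30929863 (minus) and Hpgds chr6:65117293-65144908 (minus). Hpgd lies at chr8:56294585-56321043 (plus), Alox5 at chr6:116410077-116461178 (minus), Alox5ap at chr5:149264767-149288153 (plus) and Ltc4s at chr11:50236461-50238616 (minus). The receptor genes are Ptger2 at chr14:44988195-45003820 (plus) and Ptger4 at chr15:5206661-5244187 (minus). Exons on the opposite strand overlap exons of Ptgs1 (Gm43621), Alox5ap (Gm19719), Ltc4s (Gm26542), Ptger2 (Gm49364 and Gm17173) and Ptger4 (Gm15937 and the protein-coding gene Ttc33). Whether reads were counted by strand was not stated in those sources.

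The promoters of the genes on which the contrast between phagocytes turns, those of COX-2 and its partner Ptges and of COX-1 and its partner Hpgds, were read from RefSeq on GRCm38.p6, 250 bases before to 50 after the start site, and are shown 5′ to 3′ on the gene's strand. They lie at chr1:150099781-150100080 (plus) for Ptgs2, chr2:30903248-30903547 (minus) for Ptges, chr2:36230176-36230475 (plus) for Ptgs1 and chr6:65144681-65144980 (minus) for Hpgds. Start sites are the annotated ones and were not mapped in these cells. The Ptges window lies inside the GENCODE span of the gene, not at its 5′ end. Capitals mark matches, on either strand, to a core of the cAMP response element (TGACG), an E-box (CACGTG), a C/EBP pattern (TTNNGNAA) or an ETS/PU.1 core (GAGGAA).
Ptgs2: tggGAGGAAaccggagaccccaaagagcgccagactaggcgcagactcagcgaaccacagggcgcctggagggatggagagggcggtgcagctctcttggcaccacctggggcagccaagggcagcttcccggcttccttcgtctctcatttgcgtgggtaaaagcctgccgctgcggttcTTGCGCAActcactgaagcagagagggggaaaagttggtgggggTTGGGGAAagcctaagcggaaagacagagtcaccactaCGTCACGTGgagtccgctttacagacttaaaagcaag
Ptges: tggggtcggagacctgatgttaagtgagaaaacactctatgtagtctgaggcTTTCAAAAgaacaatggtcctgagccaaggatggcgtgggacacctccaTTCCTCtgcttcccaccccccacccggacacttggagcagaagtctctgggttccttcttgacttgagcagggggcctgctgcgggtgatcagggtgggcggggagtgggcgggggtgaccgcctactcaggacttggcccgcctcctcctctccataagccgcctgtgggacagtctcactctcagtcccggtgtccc
Ptgs1: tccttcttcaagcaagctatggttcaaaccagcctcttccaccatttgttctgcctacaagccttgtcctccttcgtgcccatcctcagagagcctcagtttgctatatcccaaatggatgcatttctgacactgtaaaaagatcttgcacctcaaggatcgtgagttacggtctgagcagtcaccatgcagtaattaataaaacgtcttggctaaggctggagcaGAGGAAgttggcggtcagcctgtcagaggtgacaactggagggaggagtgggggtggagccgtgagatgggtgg
Hpgds: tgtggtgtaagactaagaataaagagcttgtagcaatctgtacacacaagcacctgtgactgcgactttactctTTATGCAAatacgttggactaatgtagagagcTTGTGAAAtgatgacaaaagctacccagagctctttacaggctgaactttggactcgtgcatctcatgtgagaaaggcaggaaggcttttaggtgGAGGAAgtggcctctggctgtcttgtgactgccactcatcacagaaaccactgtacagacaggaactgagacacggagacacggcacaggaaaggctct
In the Ptgs2 promoter the reverse-strand TGACG at bases 14 to 18 after the start shares 2 bases with the CACGTG at 17 to 22, and C/EBP matches begin 69 and 25 bases before the start. Of the 9 promoters found among the 10 genes, Ptgs2 alone held TGACG and CACGTG, which 20.8% and 7.15% of 32851 RefSeq promoters hold. The C/EBP pattern was in 5 of the 9 and in 40.7% of all promoters, and GAGGAA in 7 of the 9 and in 28.3%. GC content was 59.3% for Ptgs2 and 60.0% for Ptges, 50.7% for Ptgs1 and 46.7% for Hpgds, beside a median of 52.7%. A match is only a match of letters, and binding was not measured.

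**Figure D1:**
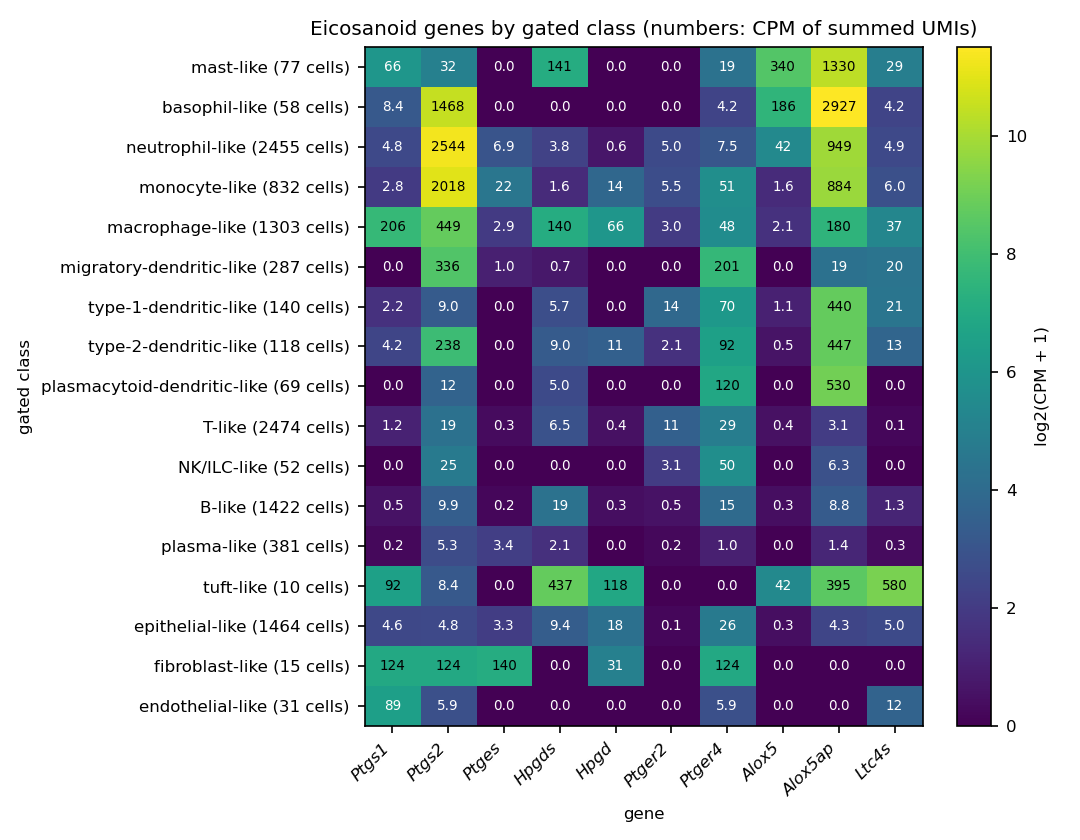
Levels of the 10 eicosanoid genes (columns, colour scale of log2(CPM + 1), numbers in CPM) in 17 marker-gated classes (rows), from UMIs summed over all kept cells of a class. Ptgs2 is brightest in neutrophil-like (2544 CPM) and monocyte-like cells (2018 CPM), Ptgs1 in macrophage-like cells (206 CPM), Alox5 in mast-like cells (339.7 CPM) and Alox5ap in basophil-like cells (2927 CPM).

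Ptgs2, the inducible cyclooxygenase, was highest in neutrophil-like cells, at 2544 CPM (2509.5 to 2579.7), and next in monocyte-like cells, at 2018 CPM (1990 to 2048). Basophil-like cells followed at 1468 CPM (1318 to 1631), macrophage-like cells at 449 (438 to 459), migratory dendritic-like cells at 336 (315 to 358) and type-2 dendritic-like cells at 238 (216 to 261). None of the intervals of these 6 classes overlapped. Mast-like cells held 13 UMIs (31.5 CPM), T-like cells 18.6 CPM and epithelial-like cells 4.78 CPM. A Ptgs2 UMI was seen in 80.7% of neutrophil-like cells, 74.3% of monocyte-like cells, 60.3% of basophil-like cells and 39.9% of macrophage-like cells. B-like cells, at 9.89 CPM, showed one in 3.73% of cells at a median of 4072 UMIs, against medians of 2933 in neutrophil-like and 11076.5 in monocyte-like cells. With every cell thinned to 1000 UMIs, 67.0% of neutrophil-like, 51.4% of monocyte-like, 45.6% of basophil-like, 19.2% of macrophage-like and 0.925% of B-like cells still had one.

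The 2 genes counted as higher in neutrophil-like cells were Ptgs2 (2544 against a mean of 329 CPM in the other classes, a log2 fold of 2.95) and Alox5ap (log2 fold 1.00, at the limit), while 6.02% of all genes met the rule there. Without library 3 the count was 1, as Alox5ap fell under the limit. Monocyte-like cells also had 2, Ptgs2 (2018 against 369 CPM, log2 fold 2.45) and Ptges (21.6 against 4.31 CPM, log2 fold 2.09), beside 5.07% of all genes. Median log2 folds of the 10 genes were -0.32 in neutrophil-like and 0.63 in monocyte-like cells, beside -1.20 and -0.42 over all genes.

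The order of neutrophil-like and monocyte-like cells in Ptgs2 was not the same in every library. In neutrophil-like cells the level was 959, 1766, 2006 and 2869 CPM in libraries 1 to 4. Monocyte-like cells of libraries 1, 3 and 4 had 1758, 2052 and 2011 CPM, with 5 cells in library 1. The ratio of neutrophil-like over monocyte-like cells was 1.26 (1.24 to 1.29) in all libraries summed, 0.545 in library 1, 0.977 (0.936 to 1.02) in library 3 and 1.43 in library 4. Basophil-like cells of libraries 1 to 3 had 926, 2314 and 1731 CPM, and their ratio to neutrophil-like cells was 0.966, 1.31 and 0.863 there, against 0.577 (0.517 to 0.641) when libraries were summed. Basophil-like cells carried 350.1 CPM of the summed neutrophil markers, with 8 of 10 seen, against 182909 CPM in neutrophil-like cells. Cells that passed both gates had been left out, which limits such a sum.

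**Figure D2:**
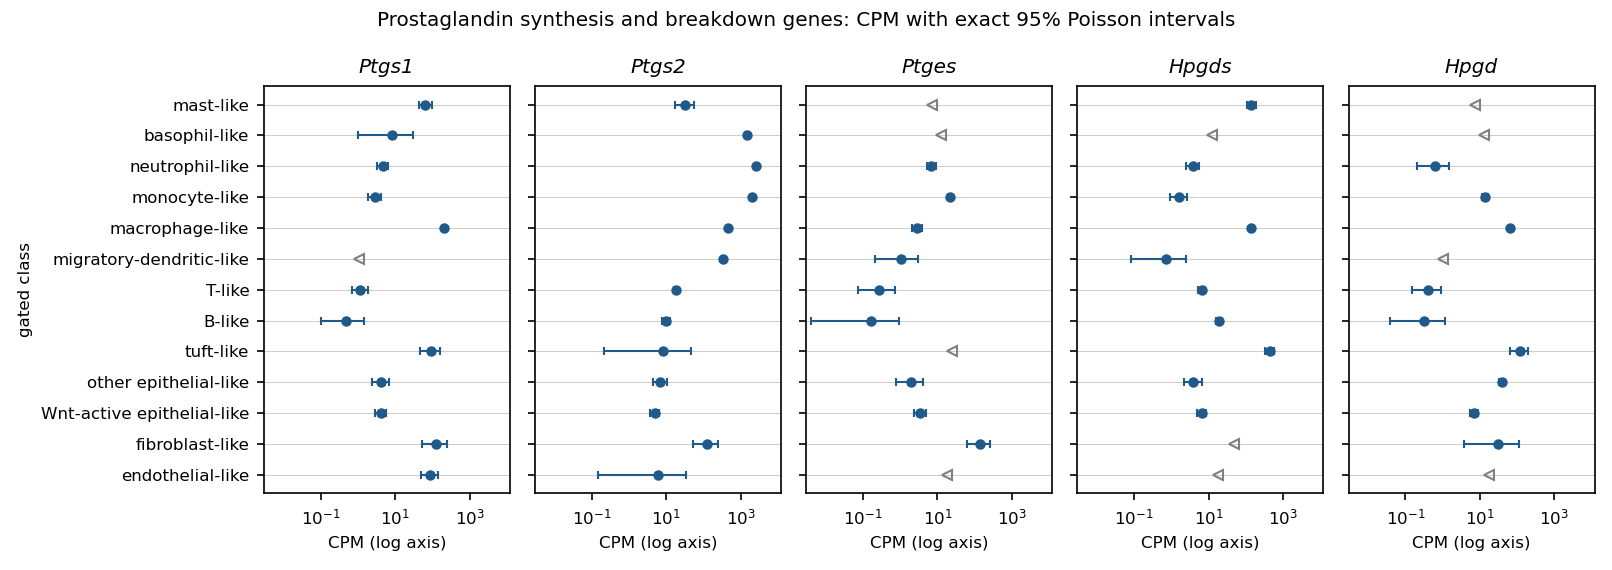
Levels (CPM, log axis) of Ptgs1, Ptgs2, Ptges, Hpgds and Hpgd in 13 gated classes. Dots are the level of the summed UMIs, bars the exact 95% Poisson interval, and open triangles the level that 3 counts would give where a class held 0 UMIs. Ptgs2 (2018 CPM) and Ptges (21.6 CPM) stand high in monocyte-like cells, and Ptgs1 (206 CPM), Hpgds (140.4 CPM) and Hpgd (65.9 CPM) in macrophage-like cells. Small classes lie higher for some genes. Ptges is at 139.7 CPM in fibroblast-like cells (9 UMIs), and Hpgds and Hpgd are at 437 and 118 CPM in tuft-like cells.

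Within the phagocytes, 1 cluster had the highest Ptgs2 level and held most of the Ptges UMIs. Its 360 cells (cluster 14 of 29) led with Ccl24, Inhba, Arg1, Cxcl3, Il1a and Spp1, had a median of 11457 UMIs and came from libraries 3 (101 cells) and 4 (258 cells) but for 1 cell. Every one of them had a Ptgs2 UMI, the level was 5931 CPM (5857 to 6005), and together they held 31.1% of all Ptgs2 UMIs. Ptges stood at 136 CPM (125 to 148), was seen in 28.6% of the cells, and 69.8% of all Ptges UMIs lay there. Libraries 3 and 4 gave 6257 and 5805 CPM of Ptgs2 and 110.4 and 149 CPM of Ptges in this cluster. The gates called 44.4% of its cells monocyte-like, 24.4% passed several gates, 21.7% passed none and 6.67% were macrophage-like. Ptgs2 was high in each of these, at 5426 CPM in the monocyte-like, 5645 in the macrophage-like, 5463 in the several-gate and 9258 in the ungated cells. Its cells carried 3466 CPM of the summed neutrophil marker list, against 863 CPM in monocyte-like and 573 CPM in macrophage-like cells and 182909 CPM in neutrophil-like cells, and the part of neutrophil RNA in its Ptgs2 was not tested.

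Outside that cluster, 243 of the 805 Ptges UMIs were left (2.07 CPM). Monocyte-like cells as a whole had 199 Ptges UMIs (21.6 CPM, 18.7 to 24.9), and without the 160 of them in cluster 14 they had 34 (4.67 CPM, 3.24 to 6.53). Of the 55 Ptges UMIs of neutrophil-like cells 42 lay in 8 cells of the cluster, and of the 47 of macrophage-like cells 38 lay in 24 cells of it. Outside the cluster these classes stood at 1.64 and 0.565 CPM, plasma-like cells at 3.35 CPM and epithelial-like cells at 3.32 CPM. Ungated cells held 171 Ptges UMIs, 148 of them in the cluster. Ptgs2 reached further than Ptges: without the cluster, monocyte-like cells still had 1116 CPM (1092 to 1140.4) and 68.2% of them a UMI, and macrophage-like cells 343 CPM (334 to 352). In all monocyte-like cells, cluster 14 included, thinned to 1000 UMIs, Ptges was seen in 3.04% of the cells with a Ptgs2 UMI (13 of 428) and in 0.495% of those without (2 of 404). Ungated cells held 171 Ptges UMIs, 21.2% of the total.

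Among neutrophil-like cells, Ptgs2 and Alox5ap differed between the main clusters, 11 and 12, in opposite directions. The 1585 cells of cluster 12, led by S100a9, S100a8, G0s2, Retnlg, Cxcl2 and Acod1, had 3348 CPM of Ptgs2, and the 847 cells of cluster 11, with Retnlg and the granule gene Ngp among its leading genes, had 1595 CPM. Ptgs2 was higher in cluster 12 in every library, at 1552, 2408, 2915 and 3528 CPM, against 843, 815, 1363 and 1896 CPM in cluster 11. Alox5ap, the Alox5 partner protein, was lower in cluster 12 in every library, at 891, 711, 787 and 701 CPM, against 1704, 1155, 1517 and 1084 CPM in cluster 11. Alox5 stood at 36.3 CPM (31.0 to 42.3) in cluster 12 and 53.0 CPM (45.7 to 61.2) in cluster 11, but the intervals overlapped in each library taken alone. Ltc4s stood at 5.94 CPM in cluster 12 and 4.54 CPM in cluster 11. The 230 cells of cluster 9, of which 63.9% were neutrophil-like, were low in both Ptgs2 (527 CPM) and Alox5ap (498 CPM). The summed neutrophil markers stood at 129220 CPM in cluster 12 and 261643 CPM in cluster 11, with all 10 markers seen in both, and the median depths were 2657 and 3462 UMIs.

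**Figure D3:**
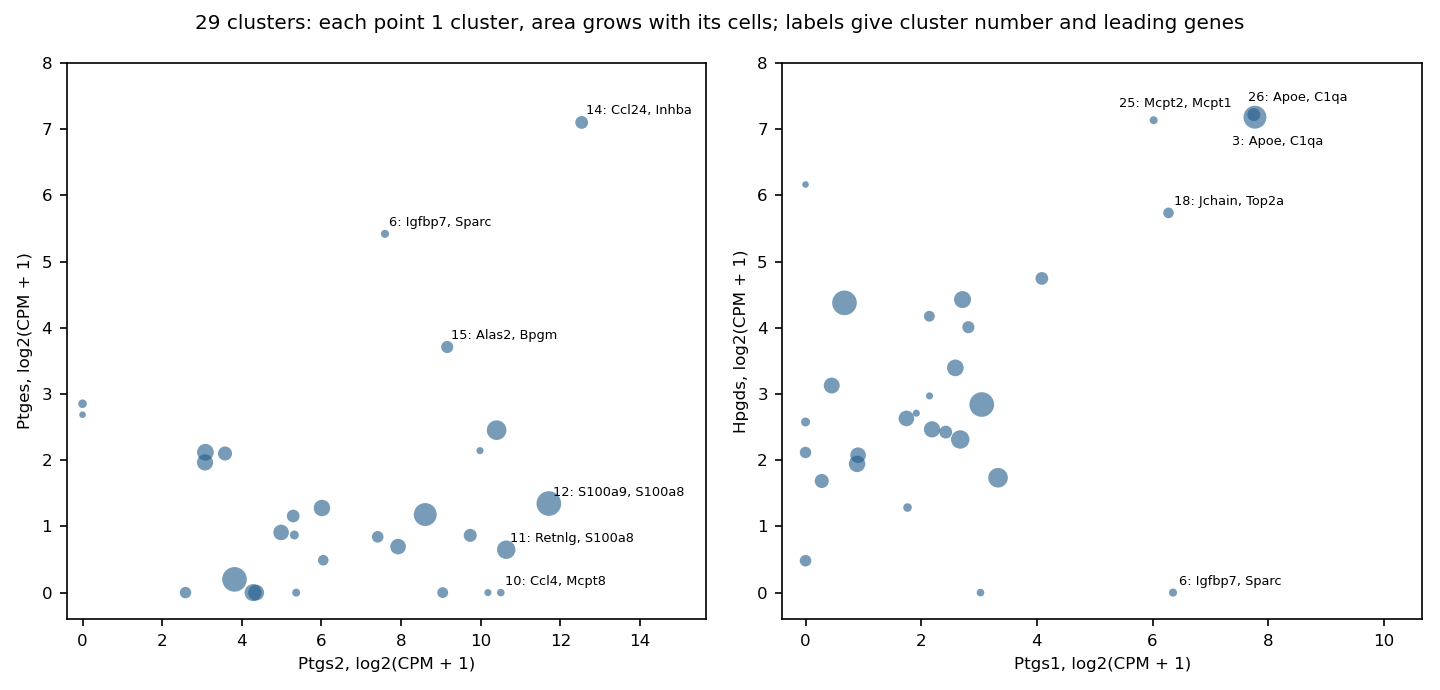
Each point is 1 of 29 clusters, placed by its levels as log2(CPM + 1), of Ptgs2 and Ptges on the left and of Ptgs1 and Hpgds on the right, with an area that grows with its cells. Cluster 14 stands alone at the top right for Ptgs2 (5931 CPM) and Ptges (136 CPM), and cluster 3, led by C1q genes, stands high for Ptgs1 (217 CPM) and Hpgds (144 CPM).

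Macrophage-like cells carried another set. Of the 10 genes, 4 were counted as higher there, Ptgs1, Hpgd, Hpgds and Ltc4s, beside 6.75% of all genes, and the median log2 fold of the 10 was 0.27 beside -0.12. Ptgs1, the constitutive cyclooxygenase, had 206 CPM (199 to 213) against a mean of 13.8 CPM in the other classes, a log2 fold of 3.81. Hpgds stood at 140.4 CPM (135 to 146) against 14.8 CPM (log2 fold 3.16), Hpgd at 65.9 CPM (62.0 to 70.0) against 3.34 CPM (log2 fold 3.95), and Ltc4s at 37.5 CPM (34.6 to 40.6) against 5.95 CPM (log2 fold 2.47). Cluster 3, the main C1q cluster, alone held 66.7% of all Ptgs1 UMIs, 60.0% of Hpgds, 51.9% of Hpgd and 50.9% of Ltc4s. A Ptgs1 UMI was seen in 60.8% of macrophage-like cells and in 2.52% of monocyte-like cells, at like median depths of 11822 and 11076.5 UMIs, and in 0.211% of B-like cells.

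Set directly against each other, monocyte-like and macrophage-like cells differed in both directions. The share of all genes that differed by more than counting error between these classes was not counted. Monocyte-like cells had 0.0137 times (0.00894 to 0.0201) the Ptgs1 level of macrophage-like cells, 2.83 against 206 CPM. Their Hpgds ratio was 0.0116 (0.00649 to 0.0192), their Hpgd ratio 0.206 (0.170 to 0.248) and their Ltc4s ratio 0.160 (0.119 to 0.210). Ptgs2 was 4.50 times as high in monocyte-like cells (4.38 to 4.62), Ptges 7.48 times (5.42 to 10.5), Alox5ap 4.90 times (4.69 to 5.11) and Ptger2 1.88 times (1.24 to 2.84). The intervals of Alox5 (0.779, 0.394 to 1.47) and Ptger4 (1.07, 0.950 to 1.20) included 1. So COX-1, both prostaglandin D2 and leukotriene C4 synthase and the breakdown enzyme were the genes lower in monocyte-like cells, and COX-2, prostaglandin E2 synthase and FLAP were among the higher.

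Most of these ratios were alike in libraries 3 and 4, which held nearly all of these cells. For Ptgs2 the ratio was 4.67 in library 3 and 4.43 in library 4, for Ptgs1 0.0121 and 0.0138, for Hpgds 0.0143 and 0.0108, for Hpgd 0.233 and 0.195, and for Alox5ap 5.33 and 4.72. Ptges was the least even, with 45.8 (11.9 to 390) in library 3 and 5.78 in library 4, and the Ltc4s ratio was 0.121 and 0.189. The Ptger2 ratio was 0.925 (0.348 to 2.24) in library 3, below 1 and with 1 in its interval, and 2.41 (1.47 to 3.97) in library 4. Levels in macrophage-like cells of libraries 3 and 4 were 212 and 204 CPM for Ptgs1, 149 and 137 CPM for Hpgds, 62.5 and 67.7 CPM for Hpgd, and 49.5 and 32.1 CPM for Ltc4s.

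Macrophage-like cells were themselves graded. Those with all 10 macrophage markers (737 cells) had 252 CPM of Ptgs1, 162 of Hpgds and 78.8 of Hpgd, those with 8 or 9 markers (305 cells) 120.4, 112 and 43.5 CPM, and those with 5 to 7 (261 cells) 26.5, 39.2 and 13.3 CPM. Ptgs2 ran the other way, at 241 CPM with all 10 markers, 714 with 8 or 9 and 1458 with 5 to 7. Median depth moved with the marker number, at 14528, 8052 and 2936 UMIs in the same order, and its part in the gradient was not tested. Of the 7289 Ptgs2 UMIs of macrophage-like cells, 1832 lay in the 24 cells of cluster 14. The 131 highest cells held 76.3% of the 7289, and the part of either group in the gradient was not tested. In macrophage-like cells thinned to 1000 UMIs, Ptgs2 was seen in 12.3% (8.05 to 17.8) of those with a Ptgs1 UMI and in 20.5% (18.1 to 23.0) of those without, and Hpgds in 8.61% of those with a Ptgs2 UMI (21 of 244) and 15.8% of those without (162 of 1025). These shares are over cells, not replicates.

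**Figure D4:**
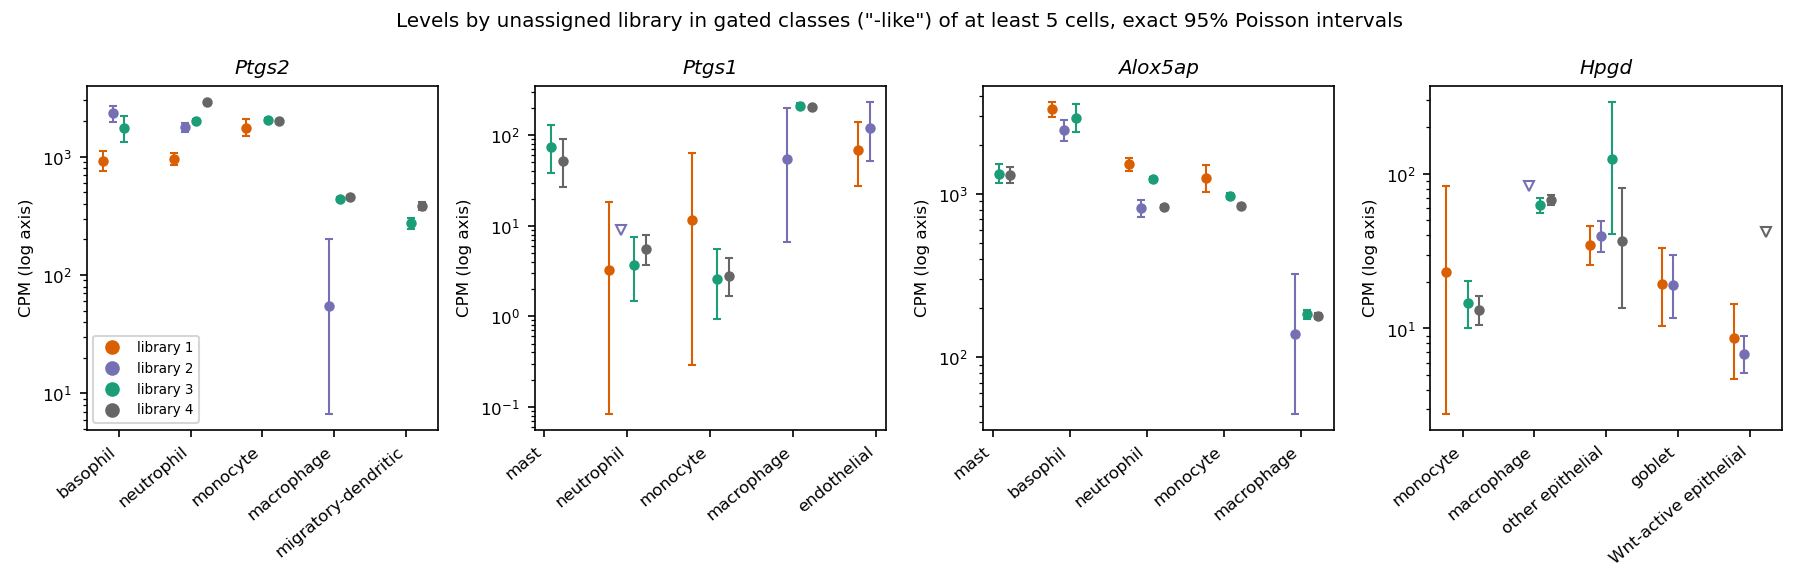
Levels (CPM, log axis) of Ptgs2, Ptgs1, Alox5ap and Hpgd in each of libraries 1 to 4, for classes with at least 5 cells in the library. Dots are single unassigned libraries with exact 95% Poisson intervals, open triangles the level of 3 counts where 0 were seen. Ptgs1 in macrophage-like cells lies at 212 and 204 CPM in libraries 3 and 4, and Ptgs2 in neutrophil-like cells spreads from 959 to 2869 CPM.

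Stromal cells were few, and as a pooled class they carried both cyclooxygenase-1 and prostaglandin E2 synthase. The 55 stromal-like cells, all from libraries 1 and 2, had 38.8 CPM of Ptges (10 UMIs) against a mean of 2.99 CPM in the other classes, a log2 fold of 3.32, and 89.2 CPM of Ptgs1 (23 UMIs), a log2 fold of 1.92. These were 2 of the 10 genes, and 11.7% of all genes met the rule in stromal-like cells. The count was 1 without library 1 and 1 without library 2, as Ptges then fell under 10 UMIs. Ptgs1 lay at 88.3 and 90.2 CPM in libraries 1 and 2. In the 15 fibroblast-like cells Ptges was at 139.7 CPM (63.9 to 265), 9 UMIs in 6 cells, and Ptgs1, Ptgs2 and Ptger4 were each at 124 CPM (8 UMIs). No gene of the 10 reached 10 UMIs in fibroblast-like cells, so the count was 0, beside 3.46% of all genes. The 31 endothelial-like cells had 88.8 CPM of Ptgs1 (49.7 to 146, 15 UMIs, log2 fold 1.92), the 1 gene counted there, where 8.12% of all genes met the rule. Without library 1 or without library 2 it was under 10 UMIs and the count was 0. Ptges was at 0 UMIs in endothelial-like cells, so the pooled Ptges level did not hold for them.

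Of the 10 genes, Hpgd, the gene of prostaglandin breakdown, was the 1 counted as higher in the epithelium. Epithelial-like cells had 18.1 CPM of Hpgd (16.0 to 20.3) against a mean of 7.02 CPM, a log2 fold of 1.25. That count is below the 27.3% of all genes that met the rule in epithelial-like cells, and the median log2 fold of the 10 genes was -1.52, beside 0.35. The count was 0 with 10 CPM added, with all other cells summed as the comparison, or with cells thinned. Ptgs2 was near the bottom of its order there, at 4.78 CPM, and 2.25% of cells had a UMI.

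Hpgd differed between epithelial states. Epithelial-like cells outside the Wnt-active, goblet, enteroendocrine and tuft gates had 38.3 CPM (32.2 to 45.3), against 7.11 CPM (5.51 to 9.03) in Wnt-active cells, a ratio of 5.39 (4.00 to 7.33). That ratio was 4.00 (2.17 to 7.85) in library 1 and 5.74 (4.00 to 8.30) in library 2. The other epithelial-like cells carried 509 CPM of the absorptive marker list, against 26.5 CPM in Wnt-active cells, and had a median of 2361 UMIs, against 14445.5. Goblet-like cells had 19.7 CPM of Hpgd, 2.77 times (1.78 to 4.25) the Wnt-active level, and the 24 enteroendocrine-like cells 103 CPM (19 UMIs), 14.5 times (8.25 to 24.5). Ptger4, the EP4 receptor, did not separate other epithelial-like cells (25.0 CPM) from Wnt-active cells (27.4 CPM), with a ratio of 0.913 (0.710 to 1.16).

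Tuft cells are rare chemosensory cells known as an epithelial source of cysteinyl leukotrienes and prostaglandin D2. Of the synthesis genes, tuft-like cells held Ltc4s, Hpgds and Ptgs1 above the mean of the other classes, but not Alox5, Alox5ap, Ptgs2 or Ptges. Only 10 cells passed the tuft gate, all from library 2, with 3 to 8 of 9 tuft markers each and 3373 to 17343 UMIs. Seen over these cells were 8 of the 9 markers, and Il25 was at 0. They also carried 1168 CPM of the Wnt-active epithelial marker list, with 7 of 8 seen, against 2346 CPM in Wnt-active cells. The part of Wnt-active cells in this group was not tested. Ltc4s was found in 8 of the 10 cells, with 0 to 24 UMIs a cell, and the 69 UMIs made up 92.0% of all Ltc4s UMIs of epithelial-like cells. Hpgds was found in all 10 cells, with 1 to 10 UMIs a cell, and Alox5ap in 8 cells, with 0 to 13. Ptgs1 was found in 6 cells, Hpgd in 3 and Alox5 in 3, and the 5 Alox5 UMIs were the only ones in epithelial-like cells. Ptges and Ptger4 were at 0 and Ptgs2 in 1 cell.

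In CPM, tuft-like cells had 579.7 of Ltc4s (451 to 734), against a mean of 8.45 over the other classes, and the log2 fold was 5.94. Hpgds reached 437 CPM (326 to 573, log2 fold 4.08), Hpgd 118 CPM (64.3 to 197, log2 fold 3.89) and Ptgs1 92.4 CPM (46.1 to 165, log2 fold 1.63). These 4 of the 10 genes were counted, beside 7.58% of all genes. Alox5ap stood at 395 against a mean of 547 CPM (log2 fold -0.47). Alox5 stood at 42.0 against 44.0 CPM (log2 fold -0.07, 5 UMIs). Against other epithelial-like cells the ratios were 112 for Hpgds (61.4 to 219.6), 129 for Alox5ap (66.1 to 276) and 22.2 for Ptgs1 (9.22 to 51.7), and for Ltc4s 2088 (362 to 83644) from 69 against 1 UMI. Of the marker lists of other leukotriene-making cells, tuft-like cells showed 2 of 12 mast markers (84.0 CPM, against 212528 CPM in mast-like cells), 1 of 10 macrophage markers (84.0 CPM), 1 of 8 basophil markers (92.4 CPM) and 2 of 10 neutrophil markers (16.8 CPM). The monocyte list was the highest of these, with 3 of 10 markers seen and 714 CPM, against 8530.3 CPM in monocyte-like cells, and its part in the levels was not tested. Cells that also passed the gate of any of these lists had been left out, which limits the sums.

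Mast-like and basophil-like cells had the highest levels of Alox5 and Alox5ap, but not of Ltc4s, which stood at 29.1 CPM in mast-like and 4.22 CPM (1 UMI) in basophil-like cells. The 77 mast-like cells had 339.7 CPM of Alox5 (286 to 401), against a mean of 17.9 CPM and with a log2 fold of 4.17, and 67.5% of them had an Alox5 UMI, 35.3% after thinning. The 58 basophil-like cells had 186 CPM of Alox5 (135 to 249), a log2 fold of 2.60, in 44.8% of cells, 15.8% after thinning. T-like cells had 0.415 CPM, in 0.243% of cells at a median of 4954.5 UMIs, against medians of 3276 in mast-like and 3553 in basophil-like cells. Alox5ap was highest in basophil-like cells, at 2927 CPM (2714 to 3153) against a mean of 322, with a log2 fold of 3.18, and all 58 cells had a UMI. Mast-like cells had 1329.8 CPM of Alox5ap (1221 to 1446), a log2 fold of 1.58.

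Of the 10 genes, 5 were counted in mast-like cells, Ptgs1, Hpgds, Alox5, Alox5ap and Ltc4s, where 3.92% of all genes met the rule, and 3 in basophil-like cells, Ptgs2, Alox5 and Alox5ap, beside 4.32%. Mast cells are known as a main source of prostaglandin D2, and Hpgds stood at 141 CPM (107 to 182) in mast-like cells, with a log2 fold of 3.17, 1.00 times (0.759 to 1.30) the macrophage-like level. Basophil-like cells had 0 Hpgds UMIs, so the 58 UMIs of mast-like cells put them at least 11.1-fold higher against a limit of 3 counts. Mast-like cells had 7.77 times the Ptgs1 level of basophil-like cells (1.95 to 67.4, 27 against 2 UMIs), 1.83 times the Alox5 level (1.30 to 2.63) and 6.90 times the Ltc4s level (1.02 to 295, 12 against 1 UMI). Mast-like cells were lower in Alox5ap, at 0.454 times the basophil-like level (0.405 to 0.509), and in Ptgs2, at 0.0215 times (0.0113 to 0.0372). Prostaglandin D2 synthase and COX-1 were thus on the mast side, and COX-2 and FLAP on the basophil side.

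Library mix bears on this pair, since 73 of the 77 mast-like cells came from libraries 3 and 4 and 48 of the 58 basophil-like cells from libraries 1 and 2. In library 3, where both could be read, the Alox5ap ratio was 0.455 (0.358 to 0.580), and the Alox5 ratio 9.55 (1.62 to 386), from 43 UMIs in mast-like against 1 UMI in basophil-like cells. Alox5 lay at 267 and 388 CPM in mast-like cells of libraries 3 and 4, and at 241 and 204 CPM in basophil-like cells of libraries 1 and 2. The mast marker list was at 212528 CPM in mast-like cells, with 12 of 12 markers seen, against 2974 CPM in basophil-like cells, where 6 were seen and Mcpt4, Tpsb2, Tpsab1, Kit, Mrgprb1 and Mrgprb2 were at 0. The basophil list was at 4846 CPM in mast-like cells, against 10001 CPM in basophil-like cells. Mast-only markers were part of the rule that split these classes, so the mast list sums are partly set by the gate.

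**Figure D5:**
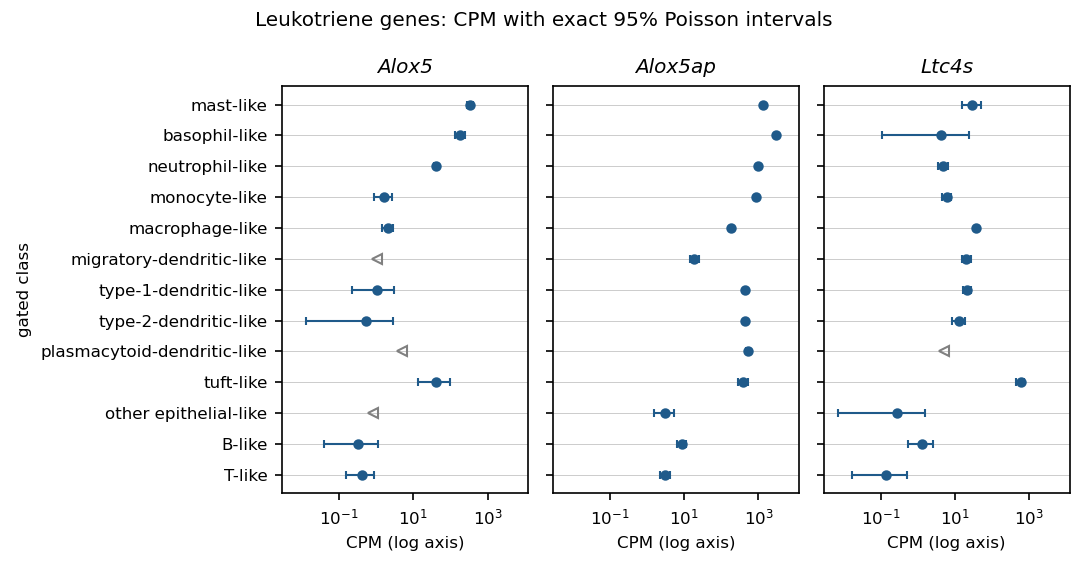
Levels (CPM, log axis) of Alox5, Alox5ap and Ltc4s in 13 gated classes, as dots with exact 95% Poisson intervals and open triangles for the level of 3 counts where 0 were seen. Alox5 peaks in mast-like cells (339.7 CPM), Alox5ap in basophil-like cells (2927 CPM) and Ltc4s in tuft-like cells (579.7 CPM).

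Neutrophils are known as a main source of leukotriene B4, which needs Alox5 and Alox5ap but not Ltc4s. Alox5 had 41.9 CPM in neutrophil-like cells (37.5 to 46.6, 11.4% of cells), against 2.09 CPM in macrophage-like cells, a ratio of 20.0 (14.0 to 29.4), and it was 25.7 times (15.3 to 46.4) the monocyte-like level of 1.63 CPM. In libraries 1 to 4 neutrophil-like cells had 36.1, 30.1, 57.8 and 37.3 CPM of Alox5, and the ratio to macrophage-like cells was 40.2 in library 3 and 15.7 in library 4. Alox5ap had 949 CPM in neutrophil-like cells (928 to 971), 5.26 times (5.04 to 5.49) the macrophage-like level and 1.07 times the monocyte-like one. Ltc4s was at 4.89 CPM in neutrophil-like cells and 37.5 CPM in macrophage-like cells. Basophil-like cells exceeded neutrophil-like cells 4.43 times (3.16 to 6.08) in Alox5 and 3.08 times (2.85 to 3.33) in Alox5ap, and libraries 1 to 3 gave 2.18, 2.99 and 2.39 for Alox5ap. For Alox5 the ratio was 6.66 in library 1 and 6.78 in library 2, but 0.483 (0.0121 to 2.75) in library 3, from 1 UMI in basophil-like cells.

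Alox5ap reached further than Alox5. Monocyte-like cells had 884 CPM (864 to 903), plasmacytoid dendritic-like cells 529.9 (473 to 592), type-2 dendritic-like cells 447 (417 to 478), type-1 dendritic-like cells 440.4 (416 to 466) and macrophage-like cells 180.4 (174 to 187). The intervals of the 2 conventional dendritic subsets overlapped. Migratory dendritic-like cells were far below the other dendritic subsets, at 18.9 CPM, 0.0428 times (0.0320 to 0.0563) the type-1 and 0.0422 times the type-2 level. T-like cells had 3.11 CPM.

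The receptors of prostaglandin E2 were spread over other cells. Ptger4 was highest in migratory dendritic-like cells, at 201 CPM (185 to 218) and in 70.4% of cells, and prostaglandin E2 acting through EP4 is known to promote dendritic cell migration. Type-2 dendritic-like cells had 92.2 CPM (79.0 to 107) and type-1 dendritic-like cells 70.3 CPM (60.8 to 80.9). Migratory cells stood 2.85 times (2.42 to 3.37) above type-1 cells, 2.30 and 3.18 times in libraries 3 and 4, and 2.18 times (1.83 to 2.59) above type-2 cells, 1.49 and 2.71 times. In plasmacytoid dendritic-like cells Ptger4 was at 120.4 CPM (94.2 to 152), a log2 fold of 1.90 and the 1 gene of the 10 counted there, beside 8.08% of all genes. Of the 72 UMIs, 71 lay in library 4 (152 CPM) and 0 in the 13 cells of library 3, which allows up to 27.7 CPM, and without library 4 the gene was not counted. Monocyte-like cells (51.1 CPM) and macrophage-like cells (47.9 CPM) lay close together, T-like cells had 28.6 CPM (26.0 to 31.5), epithelial-like cells 26.0 CPM (23.5 to 28.8), and neutrophil-like cells 7.52 CPM (5.74 to 9.68). Neutrophil-like cells, the highest in Ptgs2, were thus among the lowest in Ptger4, at 0.157 times the macrophage-like level.

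Dendritic-like cells as a whole had 3 genes counted as higher, Ptger4 (125 against a mean of 31.2 CPM, log2 fold 1.97), Ltc4s (log2 fold 1.23) and Ptger2 (log2 fold 1.03), beside 5.48% of all genes. Ptgs2 in these cells was uneven. In migratory dendritic-like cells the 29 highest cells held 95.3% of the 962 UMIs, and the ratio to type-1 cells was 37.5 (25.2 to 58.2), 25.6 and 47.9 in libraries 3 and 4. Against type-2 cells it was 1.41 (1.26 to 1.58), but 0.665 in library 3 and 2.91 in library 4, where type-2 cells held 412 and 132 CPM.

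Ptger2, the EP2 receptor, was rare everywhere and highest in type-1 dendritic-like cells, at 14.0 CPM (9.95 to 19.1, 39 UMIs). Migratory dendritic-like cells had 0 UMIs, at most 0.0749 times the type-1 level against a limit of 3 counts. T-like cells followed at 10.7 CPM (9.10 to 12.6), against a mean of 1.89 CPM and with a log2 fold of 2.02. That interval overlapped the one of type-1 cells. Ptger2 was the 1 gene counted in T-like cells, beside 7.4% of all genes, and it was not counted with 10 CPM added. Libraries 3 and 4 gave 8.84 and 13.1 CPM in T-like cells and 11.7 and 15.5 CPM in type-1 cells. Among T cell clusters the highest was cluster 16, whose leading genes include Il17a and Il22, at 23.4 CPM (18.6 to 29.0), with 27.3 and 21.4 CPM in libraries 3 and 4. Cluster 21, with Ctla4 and Tnfrsf4, had 16.7 CPM, 18.5 and 15.5 in libraries 3 and 4.

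Of 48 other genes of eicosanoid metabolism and signalling, 47 were found, and those named here are at most the 4 highest folds in a class. As for the 10 genes, the share of all genes that met the rule is given beside each count. Macrophage-like cells had 6 of the 47 counted as higher (6.75% of all genes), led by Fam213b, a prostamide and prostaglandin F synthase (60.7 against 4.44 CPM), Tbxas1, thromboxane synthase (121 against 10.3 CPM), and Cysltr1, a cysteinyl leukotriene receptor (69.7 against 8.14 CPM). Monocyte-like cells had 7 (5.07%), led by Ltb4r1, a leukotriene B4 receptor (155 against 19.7 CPM), and including Pla2g4a, cytosolic phospholipase A2 (log2 fold 1.44). Neutrophil-like cells had 5 (6.02%), among them the receptors Fpr2 (218 against 5.11 CPM) and Ltb4r1 (115 against 22.8 CPM) and Cyp4f18, a leukotriene B4 hydroxylase of the mouse (337 against 120 CPM).

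Basophil-like cells had 5 of the 47 (4.32% of all genes), led by Alox15, a 12/15-lipoxygenase (202 against 1.70 CPM), the EP3 receptor Ptger3 (63.3 against 1.91 CPM) and Cyp4f18 (979 against 70.8 CPM). Mast-like cells had 4 (3.92%), among them Ptger3 (24.3 CPM, log2 fold 2.10) and Abcc1, a leukotriene C4 exporter (77.7 CPM, log2 fold 1.62). Epithelial-like cells had 15, a share near the 27.3% of all genes, led by the phospholipase Pla2g10 (66.6 against 0.391 CPM), Alox12 (74.7 against 2.75 CPM), Mgst3 (198 against 20.0 CPM) and Ptgr1, a prostaglandin reductase (65.9 against 6.51 CPM). In endothelial-like cells 3 were counted (8.12%), led by the prostaglandin transporter Slco2a1 (479 against 0.477 CPM) and Mgll, monoacylglycerol lipase (491 against 1.67 CPM). Fibroblast-like cells had 3 (3.46%), led by Ggt5, which trims leukotriene C4 (404 CPM, log2 fold 5.84), and stromal-like cells, which hold both, 5, near the 11.7% of all genes. Tuft-like cells had 4 (7.58%), led by Mgst3 (983 CPM, log2 fold 5.55). T-like cells had 3, near the 7.4% of all genes, led by Cysltr2 (33.9 against 4.07 CPM), dendritic-like cells 3 (5.48%), with Lta4h, leukotriene A4 hydrolase, at 77.0 against 35.3 CPM, and plasmacytoid dendritic-like cells 1 (8.08%), the thromboxane receptor Tbxa2r (63.5 against 3.86 CPM).

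The genes most alike in pattern were found by Pearson correlation of log2(CPM + 1) over the 16 classes of at least 50 cells, which share libraries and differ in depth. For Ptgs2 these were Rabgef1 (r = 0.933), Cebpb, the C/EBP-beta factor gene (0.926), and Tarm1 (0.917), and for Ptges they were Edn1 (0.916), Gm1673 (0.910) and Saa3 (0.910). Ptgs1 was followed most closely by 1700003F12Rik (0.886), Tspan4 (0.868) and Speg (0.864), Hpgds by Gm45606 (0.855), Shcbp1l (0.854) and Lmln (0.852), and Hpgd by genes that include Gm5431 (0.919) and Sash1 (0.907). For Alox5 they were Rab44 (0.907), A630001O12Rik (0.890) and P2rx1 (0.880), for Alox5ap Cd300a (0.941), Nfam1 (0.927) and I830077J02Rik (0.927), and for Ltc4s Anpep (0.867), Dapk1 (0.848) and Wdfy3 (0.848). Ptger4 was nearest to Necap2 (0.938), Fbxw11 (0.933) and Poldip3 (0.925), and Ptger2 to Gm31763 (0.737), Ipcef1 (0.728) and Nefh (0.725). Among the 10 genes themselves the highest values were 0.678 for Alox5 with Alox5ap, 0.678 for Ptgs1 with Ltc4s and 0.625 for Ptgs2 with Alox5ap.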

How the data were processed

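Single cells were captured on the Chromium platform with its V3 3′ chemistry, per the labels' protocols. The authors deposited a matrix of raw UMI counts, for which Cell Ranger 3.0.2 and mm10 are named, per the submitters' processing notes and the header of the file. No source used here names the annotation. Filters kept barcodes with 200 or more genes and no more than 20% of UMIs from mitochondrial genes; every deposited barcode had 500 or more UMIs. Depth was 6521797, 13014547, 37126182 and 64911071 UMIs in the kept cells of libraries 1 to 4.

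Classes came from 206 marker genes in 26 lists: a cell passed a gate with 50% of its markers detected, mast-like cells needed 3 mast-only markers and tuft-like cells 3 tuft markers. These thresholds were set after seeing the data. Cells passing several gates were left out of the classes. Leiden clusters (scanpy 1.11.5, igraph 0.11.9) used 2000 variable genes without the genes reported, 30 components, 15 neighbours and resolution 1. No doublets were removed, except that an alternative removed the 625 cells of highest Scrublet score (0.8% per 1000 cells of a library). Folds used the 14 classes of at least 20 cells. Intervals are exact Poisson (levels), exact binomial (shares) and exact conditional (ratios), computed with scipy 1.17.1, numpy 2.4.6 and pandas 2.3.3 in python 3.11.15 and drawn with matplotlib 3.10.9. For shares, 13167 cells were thinned to 1000 UMIs and 1031 shallower ones left out. The computations were tested on simulated data. All 10 genes are reported. The genes most alike are the 3 of highest correlation, of which 1 for Hpgd is not reported here, and other pathway genes at most the 4 highest folds a class. The 10 genes and the marker and pathway lists were chosen by name, with earlier results of these data known. Of the alternatives, 16 were planned and 14 were added after seeing the data.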

Additional observations from a re-analysis of the deposited data

Results flagged for a closer look

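Barcodes that failed the filters, which no comparison used, held 7955653 UMIs and still carried every one of the 10 genes above the limit that a count of 0 allows. There were 560 UMIs of Ptgs2 (70.4 CPM in removed barcodes, against 646 CPM in kept cells), 170 of Ptger4 (21.4 against 36.2 CPM) and 104 of Hpgds (13.1 against 37.5 CPM). Alox5ap had 75 UMIs (9.43 against 251 CPM), Hpgd 62 (7.79 against 19.8 CPM) and Ptgs1 46 (5.78 against 50.9 CPM). The rarer genes had 25 UMIs for Ptges (3.14 against 6.62 CPM), 9 for Ltc4s (1.13 against 12.2 CPM), 8 for Alox5 (1.01 against 6.00 CPM) and 6 for Ptger2 (0.754 against 4.01 CPM). Each of the 10 had a lower CPM in the removed barcodes than in kept cells, and the share of all genes that did was not counted. Removal took 59.0% and 56.3% of the barcodes of libraries 1 and 2, against 8.75% and 4.45% of libraries 3 and 4. The part of this mix in the lower levels was not tested.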

How the results depend on the processing

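No paired analysis was possible because each group has 1 sample and no source pairs a barcode suffix with a sample. Of 230 alternative values for the counts of genes higher in a class, 196 stayed within 1.5 times the main count and 34 moved. Neutrophil-like cells went to 1 gene with 1 more marker per gate, at most 10% mitochondrial UMIs, 10 CPM added, the mean of per-cell CPM, thinning, without library 3, and without cells over 1% haemoglobin, since Alox5ap lies at the limit. Thinning gave 3 for mast-like, 1 for dendritic-like, and 0 for stromal-like, epithelial-like, endothelial-like and tuft-like cells. It left 1000 UMIs a cell, so the 10 tuft-like, 31 endothelial-like and 55 stromal-like cells could hardly reach 10 UMIs of these genes. Their 0 therefore cannot show an effect of depth, and the minimum also weighs on the 77 mast-like cells. Adding 10 CPM gave 1 for dendritic-like and 0 for T-like and epithelial-like cells. Summing all other cells as the comparison gave 2 for plasmacytoid dendritic-like, 1 for stromal-like and dendritic-like, and 0 for epithelial-like and endothelial-like cells. Clusters in place of gates gave 1 for monocyte-like cells. Fibroblast-like cells gave 1 with 1 more marker per gate, 2 without cell filters and 4 without the minimum of 10 UMIs. Stromal-like cells gave 1 at 10% mitochondrial UMIs, with doublets removed, without library 1, without library 2 and in cells of at least 5000 UMIs, and endothelial-like cells 0 without library 1, without library 2 and in cells of at least 5000 UMIs. Plasmacytoid dendritic-like cells gave 0 without library 4. Tuft-like cells have no value without library 2. The settings on haemoglobin and on 5000 UMIs were chosen after seeing the data.

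Of 508 alternative values for single genes, 386 held, 118 moved and 4 reversed. All 4 are differences in the share of cells with a second gene, in percentage points, that turned when all UMIs were used in place of 1000: Alox5ap with Ptgs2 in neutrophil-like cells (6.41 against -4.74), Alox5 with Alox5ap (20.1 against -20.0) and Hpgds with Alox5 (30.0 against -5.68) in mast-like cells, and Ptger2 with Ptger4 in T-like cells (3.51 against -0.92). None of the 4 is used above. The log2 folds ranged from 2.31 to 3.05 for Ptgs2 in neutrophil-like cells, 2.89 to 4.87 for Ptgs1 in macrophage-like cells, 3.65 to 5.86 for Alox5 in mast-like cells and 2.95 to 3.57 for Alox5ap in basophil-like cells. The log2 ratio of monocyte-like over macrophage-like cells ranged from 1.80 to 2.23 for Ptgs2, -6.27 to -4.59 for Ptgs1, 1.82 to 5.47 for Ptges and -7.18 to -5.95 for Hpgds, and that of other epithelial-like over Wnt-active cells for Hpgd from 2.16 to 2.64. The 15 fibroblast-like and 10 tuft-like cells hold few UMIs, which limits the precision of their levels.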
